A study of Saccharomyces cerevisiae with 24 samples.

Results

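The wild-type strain of a series on nutrient depletion in budding yeast (Saccharomyces cerevisiae) was compared with itself in 2 states of growth, starvation and log phase. The 6 libraries were taken by genotype and growth state from the deposited labels, out of 24 in the whole series. WT starvation was strain JPY10H3 in the starvation state at 48 h (3 biological replicates), and WT log was the same strain in log phase (3 biological replicates). The strain has a BY background, and all 6 cultures grew in SD, a synthetic minimal medium, supplied with 2% D-glucose, histidine, leucine, uracil and lysine. The labels do not say which nutrient had run out, and the extraction protocol calls the later state stationary. The other 18 libraries are the same 2 states of 3 mutants. These are hsh49::Q24P (strain JPY2863, a changed HSH49), nam8D (JPY28H5, NAM8 deleted) and mud1D (JPY28A8, MUD1 deleted). The mutant libraries entered the choice of tested genes and the estimate of spread, and were compared with the wild type at the end. RNA was extracted with hot acid phenol, treated with DNase, selected for poly(A) tails and made into directional libraries. The deposited values are TPM, which stands for transcripts out of a fixed total per library, after correction for transcript length.

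Yeast that grows fast on glucose ferments it, makes ribosomes at a high rate and represses the genes for respiration and for other carbon sources. As glucose runs out, cells pass the diauxic shift, respire the ethanol they have made, and later stop dividing and enter stationary phase, where storage carbohydrates, chaperones, antioxidant enzymes and autophagy are known to matter for survival. The protein kinase A and TORC1 pathways promote growth while nutrients last, and the kinases Snf1, Rim15 and Yak1 act when they do not.

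Of 7121 gene rows, 6449 reached 1 TPM in at least 3 of the 24 libraries and were tested. The difference was WT starvation minus WT log in log2(TPM + 1), and a gene was called where it reached 1 in size with an adjusted p under 0.05. That scale understates the change of genes near 0. In what follows a value after ± is the SE of a log2 difference or the SD of a mean TPM (n = 3). The markers of the labelled strain were present: the pheromone genes of mating type a, MFA1 and MFA2, averaged 217 and 188 TPM in WT starvation, against 2062 and 955 TPM in WT log, while the alpha-type genes STE3 and MF(ALPHA)1 stayed under 13 TPM in every library. The starved-state marker SPG4 was high in WT starvation alone, at 2384, 2773 and 2171 TPM, against 13.8, 13.6 and 14.7 TPM in WT log. HSP12, the other starved-state marker, averaged 8819 TPM in WT starvation and 224 TPM in WT log. The glucose-induced transporter HXT1 was high in WT log alone, at 3.99, 3.98 and 3.55 TPM in WT starvation and 253, 209 and 237 TPM in WT log. HIS3 and LYS2 are listed at 0 in all 6 libraries. In bulk RNA, fewer cells of a kind and less RNA per cell cannot be told apart, and TPM does not show the total RNA of a cell.

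At any size (limma, adjusted p under 0.05), 58.7% of the wild type's tested genes were higher in WT starvation and 22.1% lower. For 35.2% the share of the transcript pool changed by enough for a call. In WT starvation 1691 genes (26.2%) were higher and 581 (9.01%) were lower than in WT log. Among them 200 rose and 28 fell by at least 3 on the log2 scale, and 58 rose and 3 fell by at least 5. The 3 libraries of each state did not overlap for 3966 genes that were higher (61.5%) and 1564 that were lower (24.3%). Across genes, Pearson's r of log2 values ran between 0.992 and 0.994 within WT starvation and between 0.994 and 0.995 within WT log, against 0.832 to 0.858 between the states (genes are not independent replicates). The median gene stood 0.47 higher in WT starvation. When each library was centred on its median gene, 845 genes were higher (13.1%) and 1038 lower (16.1%), so the balance of directions depends on that choice. Counts for gene groups are therefore given both as deposited and after centring. Of the genes described below as risen or called higher, HSF1, YAP1, RRN7, NTH1, CYC7, MET4, MET28, TGL3, SNC1, NDT80, BLM10, PST1, TPK2, RIM15 and GIS1 had no call after centring. Of the hexose transporters HXT8, HXT9 and HXT10, not all kept the call after centring either.

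**Figure D1:**
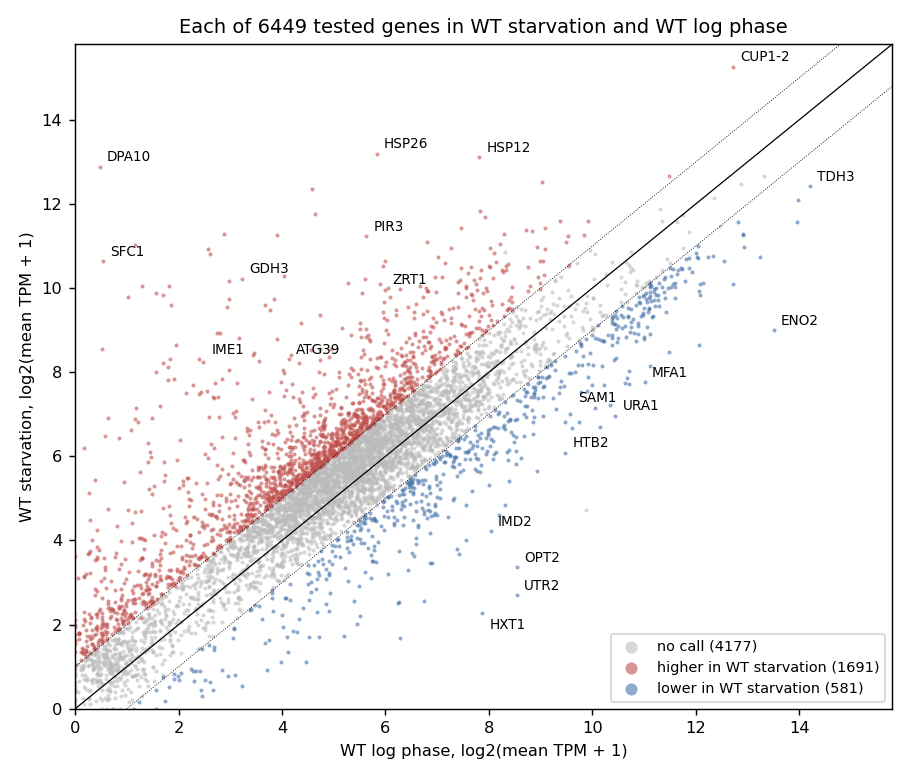
Mean level of each tested gene, as log2(mean TPM + 1), in WT starvation (y axis) against WT log (x axis), 3 libraries a state. Red points are the 1691 genes called higher and blue points the 581 called lower; grey points are the other 4177. The dotted lines mark a difference of 1 from the diagonal.

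The largest rises belonged to the use of carbon sources other than glucose and to late stress genes. DPA10, listed as YLR307C-A, had 7506, 8404 and 6725 TPM in WT starvation and 0.189, 0.149 and 0.822 TPM in WT log. SFC1, the mitochondrial succinate-fumarate carrier, had 1574, 1819 and 1394 TPM in WT starvation, against 0.565, 0.527 and 0.279 TPM in WT log (log2 difference 10.09 ± 0.60, adjusted p = 5.1e-12). MLS1, malate synthase of the glyoxylate cycle, rose by 9.88 ± 0.43 and FBP1, fructose-1,6-bisphosphatase, by 8.77 ± 0.59. The transporters ADY2 (acetate), JEN1 (lactate) and HXT5 (hexose), the gluconeogenic enzyme PCK1, the hydrophilin SIP18, the alcohol dehydrogenase ADH2, the carnitine carrier CRC1 and SHH3 made up the remaining 8 of the 12 largest, at 8.71 to 8.02. No library of either state overlapped with the other state for any of these 12 genes.

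The largest falls were spread over the cell wall, glucose uptake and nucleotide synthesis. UTR2, a cell wall transglycosylase, had 5.15, 4.598 and 6.68 TPM in WT starvation, against 356, 381 and 377 TPM in WT log (log2 difference -5.86 ± 0.13, adjusted p = 1.6e-18). HXT1 fell by 5.59 ± 0.24 and OPT2, an oligopeptide transporter family member, by 5.22 ± 0.16. The enolase ENO2, the thiamine-repressed acid phosphatase PHO3, the IMP dehydrogenases IMD2 and IMD4, the cell wall genes EGT2 and SRL1, and AIM20, TDA6 and IRC7 completed the 12, at -4.598 to -3.59.

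The transcript pool was spread over more genes in starvation. The 100 most abundant genes held 28.6% ± 0.713 of all TPM in WT starvation and 39.2% ± 0.174 in WT log (SD, n = 3 each). It took 347, 346 and 361 genes to reach 50% of TPM in the WT starvation libraries, against 167, 165 and 168 in the WT log libraries. The libraries of the states did not overlap in either measure. With 3 libraries against 3, an exact permutation test cannot go below p = 0.1, so no test of these shares was made. Of the 100 most abundant genes of each state, 38 were shared, and of the top 10, 3.

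The most abundant transcript of WT starvation was that of CUP1-2, the copper metallothionein, at 42100, 37250 and 38160 TPM, against 6183, 5871 and 8275 TPM in WT log. HSP26, a small heat shock protein that holds unfolded proteins, ranked 2 in WT starvation and 2279 in WT log. HSP12, a membrane-associated hydrophilin, ranked 3 in WT starvation and 644 in WT log, and ICL1, isocitrate lyase, ranked 10 in WT starvation and 4028 in WT log. TEF1 and TEF2, near-identical genes for elongation factor 1 alpha, and the glyceraldehyde-3-phosphate dehydrogenase TDH3 were in the top 10 of both states. In WT log the list was led by TDH3, FBA1, ADH1 and ENO2, enzymes of glycolysis and fermentation. ENO2 had 510.5, 435 and 581 TPM in WT starvation and 11390, 11750 and 11750 TPM in WT log, and ranked 393 in WT starvation.

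**Figure D2:**
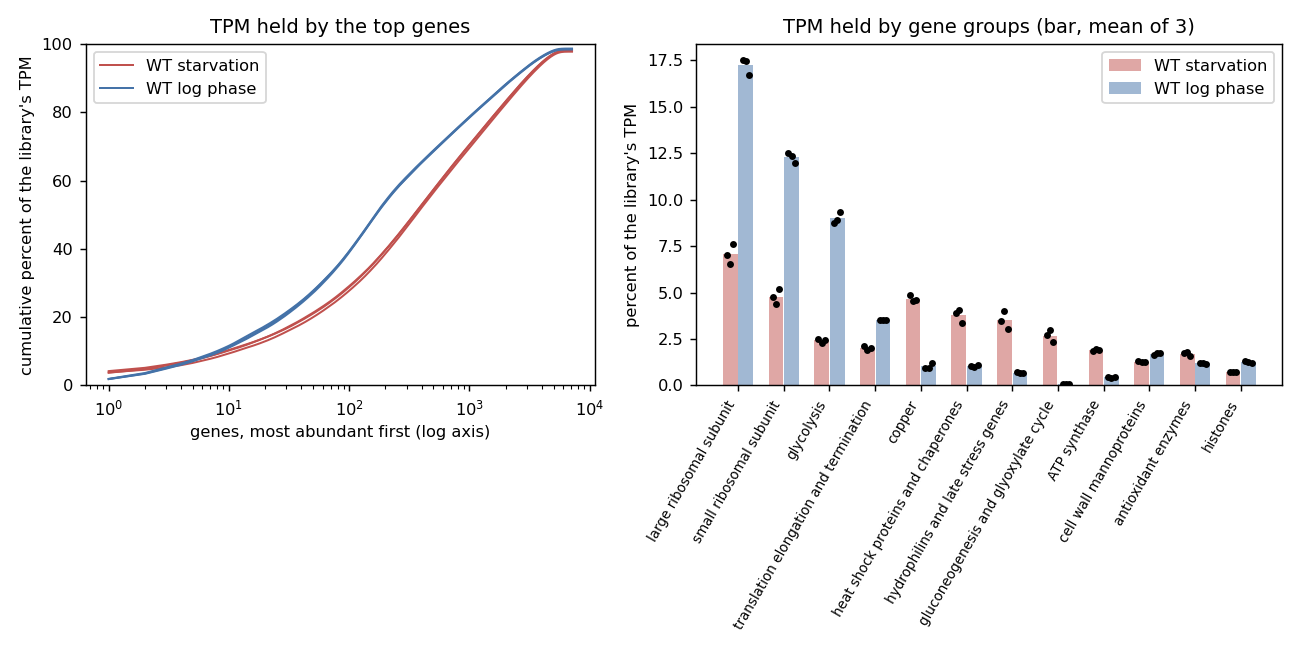
Left, cumulative percent of all TPM (y axis) held by genes ranked by abundance (x axis, log scale), a line for each of the 6 libraries. Right, percent of all TPM (y axis) in 12 gene groups, WT starvation left of WT log, bars as means of 3 libraries and points as libraries. From about the 10 most abundant genes on, the WT starvation lines lie below the WT log lines, and the large-subunit ribosomal proteins show the widest gap of the groups drawn.

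By gene group, the large-subunit ribosomal protein genes made up 7.07% ± 0.541 of TPM in WT starvation and 17.2% ± 0.46 in WT log, and the glycolytic genes 2.43% ± 0.102 of TPM in WT starvation and 9.01% ± 0.315 in WT log. Gluconeogenesis and glyoxylate cycle genes made up 2.67% ± 0.324 of TPM in WT starvation and 0.0557% ± 0.00199 in WT log, heat shock proteins and chaperones 3.78% ± 0.372 of TPM in WT starvation and 1.06% ± 0.0602 in WT log, and hydrophilins with other late stress genes 3.502% ± 0.496 of TPM in WT starvation and 0.688% ± 0.0129 in WT log. Copper genes reached 4.66% ± 0.165 of TPM in WT starvation and 1.02% ± 0.144 in WT log, most of it CUP1-2.

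Calls among stress protection genes were mostly higher in 4 lists, and the list of folding in the endoplasmic reticulum had no call as deposited. Of all tested genes 26.2% were higher and 9.01% lower as deposited, and 13.1% and 16.1% after centring, the background for the counts of each group. Heat shock proteins and chaperones had 20 higher and 0 lower of 35 tested (15 and 1 after centring), a median of 1.24. HSP26 had 9598, 10520 and 7865 TPM in WT starvation, against 48.3, 48.9 and 70.6 TPM in WT log (log2 difference 7.37 ± 0.18, adjusted p = 9.2e-18), and all starved libraries lay far above the log ones. HSP33, a chaperone-like protein of the glyoxalase III family, rose by 6.26 ± 0.22 and SSA3, a stress-inducible Hsp70, by 4.23 ± 0.09. The constitutive Hsp70 gene SSA2 averaged 432 ± 66.5 TPM in WT starvation and 856 ± 51.4 TPM in WT log and passed the test at log2 difference -0.99 ± 0.16, adjusted p = 9.1e-06, just short of the size needed for a call. HSF1, the heat shock transcription factor, rose by 1.22 ± 0.05.

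Hydrophilins, small hydrophilic proteins of which some protect cells against drying, were listed with other late stress genes, and the list had 20 higher and 0 lower of 22 tested (16 and 1 after centring), a median of 2.35 against 0.47 for all tested genes. SIP18 had 1989, 2274 and 1561 TPM in WT starvation, against 5.03, 4.799 and 4.88 TPM in WT log, and GRE1 had 847, 870.3 and 602 TPM in WT starvation, against 2.75, 2.64 and 2.46 TPM in WT log. HSP12 had 9137, 10570 and 6751 TPM in WT starvation, against 209.5, 226 and 237 TPM in WT log (log2 difference 5.27 ± 0.40, adjusted p = 2.4e-10). The SPG and SNZ genes, named for their need or their expression in stationary phase, had 17 higher and 0 lower of 17 tested (13 and 0 after centring). SPG4 rose by 7.34 ± 0.18, SPG1 by 6.74 ± 0.51 and FMP45, a cortical membrane protein, by 5.93 ± 0.50.

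Promoters were read as the 300 bases before the start codon in the RefSeq genome, assembly R64, by gene identifier, and searched on both strands. The stress response element, AGGGG, is the site of the activators Msn2 and Msn4. It was found in 16 of 22 promoters of the hydrophilin list and in 22.2% of all 6007 promoters. Over the whole comparison it stood in 33.6% of promoters of genes called higher and 15.1% of those called lower, and the related post-diauxic shift element AGGGAT in 13.2% and 6.08%. The elements share the letters AGGG and were counted apart. The 3 stretches of 30 bases below show the element (in capitals, CCCCT where it lies on the other strand) in the 3 promoters of the list with the largest rises among those that hold it. HSP12's lies at chrVI:107054-107083 on the plus strand, PAI3's at chrXIII:610477-610506 on the minus strand and MOH1's at chrII:126580-126609 on the plus strand. PAI3 encodes an inhibitor of the vacuolar proteinase A, and MOH1 a protein needed for survival in stationary phase. A match is a description of letters and says nothing of binding.
HSP12: gttccggtcgtcCCCCTcttgatctgaaag
PAI3: gtcgggaatctcAGGGGcgaccgcccccgg
MOH1: ttccttatcctgCCCCTtatcactctgaac

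Antioxidant enzymes had 20 higher and 3 lower of 36 tested (13 and 5 after centring). The glutathione peroxidase GPX1 rose by 3.53 ± 0.14, while its relative GPX2 fell by 1.95 ± 0.11, at 23.97, 27.3 and 27.4 TPM in WT starvation and 107, 101 and 104 TPM in WT log. OYE3 rose by 4.34 ± 0.11 and its paralog OYE2, an NADPH oxidoreductase, fell by 1.03 ± 0.19, a call that was lost without WT starvation replicate 1, WT starvation replicate 2 or WT log replicate 1 (-0.995, -0.918 and -0.996). TRR1, thioredoxin reductase, fell by 1.41 ± 0.08, and YAP1, the activator of oxidative stress genes, rose by 1.33 ± 0.04. Genes of folding in the endoplasmic reticulum and of the unfolded protein response had no call as deposited: 0 higher and 0 lower of 26 tested (0 and 4 after centring), and log2 differences from -0.86 to 0.97. Of these genes 10 were higher and 9 lower at any size (limma, adjusted p under 0.05), against 58.7% higher and 22.1% lower of all tested genes. HAC1, the activator of that response, averaged 145 ± 3.77 TPM in WT starvation and 221 ± 11.9 TPM in WT log.

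Among genes for the breakdown of the cell's own parts, most autophagy genes rose as deposited, while fewer than 50% of the members of each other list were higher. Autophagy genes had 29 higher and 0 lower of 35 tested (17 and 0 after centring), a median of 1.44. ATG39, the receptor for the nuclear envelope, had 317, 319.6 and 311 TPM in WT starvation, against 15.7, 16.2 and 17.5 TPM in WT log (log2 difference 4.18 ± 0.09, adjusted p = 1.8e-18). ATG34, a receptor for vacuolar mannosidase, rose by 3.04 ± 0.24, and ATG40, a receptor for the endoplasmic reticulum, by 2.59 ± 0.10. These 3 cargo receptors led the list, and every one of their starved libraries lay above every log library. The vacuolar enzymes had 7 higher and 1 lower of 15 tested (5 and 1 after centring). AMS1, vacuolar alpha-mannosidase and a cargo of ATG34, rose by 3.78 ± 0.20, and PBI2, an inhibitor of proteinase B, had 2439, 2548 and 2505 TPM in WT starvation and 317, 301 and 325 TPM in WT log. CPS1, carboxypeptidase S, fell by 1.53 ± 0.07. The proton pump of the vacuole had 0 higher and 1 lower of 21 tested (0 and 11 after centring), VMA5 among them at -1.42.

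Proteasome genes had 2 higher and 0 lower of 38 tested (1 and 0 after centring), with a median of 0.37, near that of all tested genes. The 2 called members were RPN4, the transcription factor that drives the other genes, and BLM10, a proteasome activator. RPN4 had 322, 328 and 312 TPM in WT starvation, against 58.3, 53.4 and 56.7 TPM in WT log (log2 difference 2.49 ± 0.07, adjusted p = 5.3e-17). The Rpn4 site GGTGGCAAA was found in 28 of 38 promoters of the list and in 1.22% of all promoters. Ubiquitin genes had 11 higher and 0 lower of 36 tested (7 and 1 after centring). CSR2, an adaptor of the ligase Rsp5, rose by 3.85 ± 0.12, UBC5, a ubiquitin-conjugating enzyme, by 3.11 ± 0.07, and UBC8, which acts in the decay of fructose-1,6-bisphosphatase, by 2.25 ± 0.11.

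**Figure D3:**
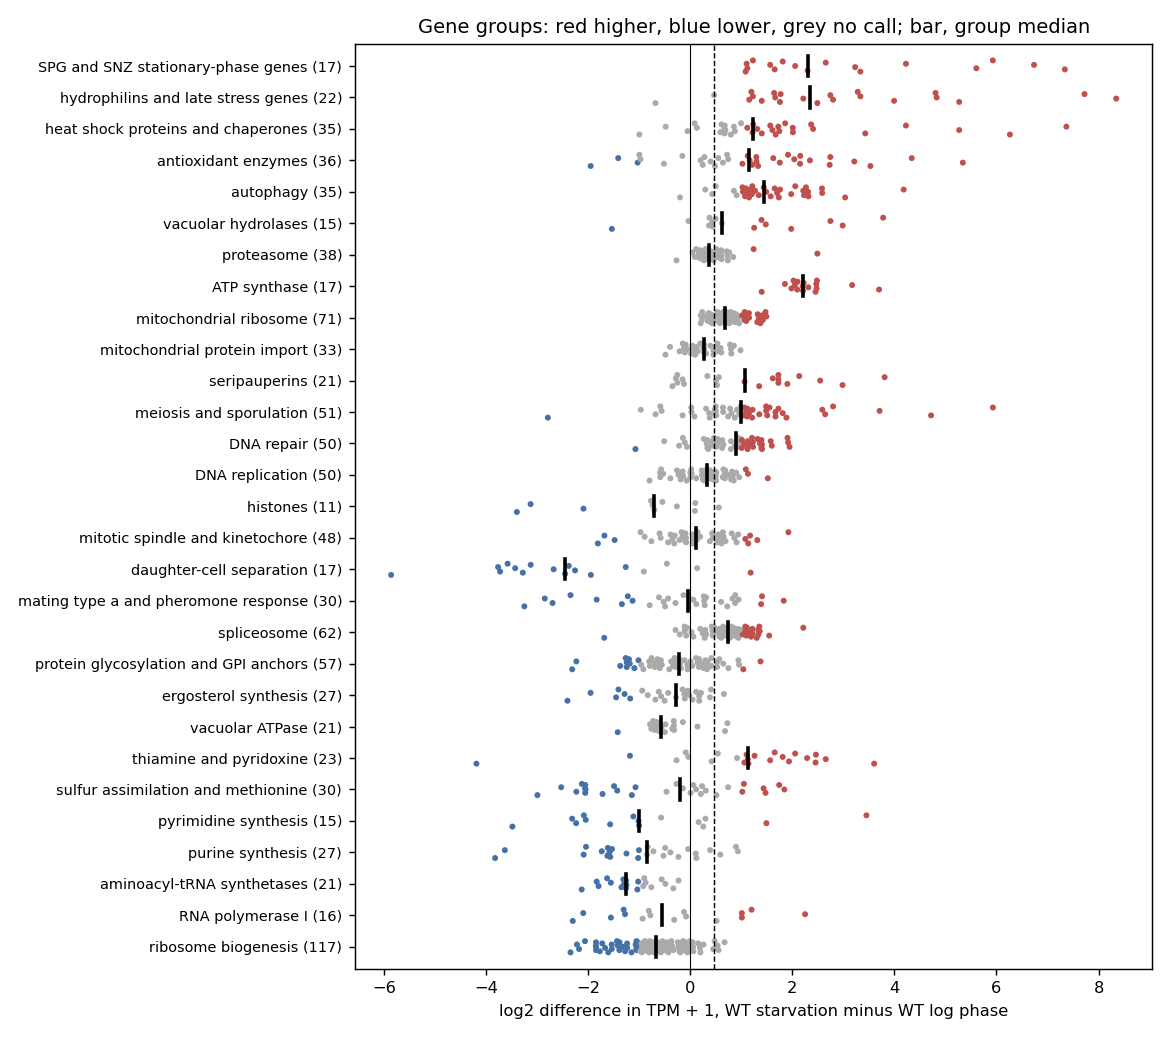
Log2 difference, WT starvation minus WT log (x axis), of each tested member of 29 gene groups (rows), a point a gene and a bar at the group's median. The dashed line is the median of all tested genes, 0.47; the medians of hydrophilins, autophagy and ATP synthase lie to its right, and those of ribosome biogenesis, tRNA synthetases and daughter-cell genes to its left.

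Respiratory complexes rose nearly whole. ATP synthase genes had 17 higher and 0 lower of 17 tested (16 and 0 after centring), complex III with cytochrome c 11 higher and 0 lower of 11 tested (10 and 0 after centring), complex IV 9 higher and 0 lower of 10 tested (9 and 0 after centring), and NADH dehydrogenases with complex II 10 higher and 0 lower of 10 tested (10 and 0 after centring). INH1, an inhibitor of the ATP synthase when it runs backwards, rose by 3.701 ± 0.11, and the subunit TIM11 stood at 2.48. NDE2, an external NADH dehydrogenase, rose by 6.67 ± 0.43, and COX26, a stabiliser of respiratory supercomplexes, by 4.55 ± 0.21. In 16 of 17 ATP synthase promoters the letters CCAAT were found, against 41.8% of all promoters. TCA cycle genes had 15 higher and 0 lower of 17 tested (13 and 1 after centring), led by the citrate synthase CIT3 at 5.55.

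Other mitochondrial and peroxisomal groups ranged from no call to most members higher. Assembly factors of the respiratory chain had 16 higher and 0 lower of 32 tested (7 and 0 after centring), with SDH6 at 2.93. Mitochondrial ribosomal proteins had 15 higher and 0 lower of 71 tested (1 and 0 after centring) and log2 differences from 0.21 to 1.49, with MRPS16 the highest. Protein import had 0 higher and 0 lower of 33 tested (0 and 0 after centring). At any size (limma, adjusted p under 0.05) 19 of the 33 were higher and 4 lower, against 58.7% and 22.1% of all tested genes. By that measure 70 of the 71 mitochondrial ribosomal protein genes were higher and 0 lower. Beta-oxidation of fatty acids, which yeast runs in peroxisomes, had 15 higher and 0 lower of 19 tested (11 and 0 after centring). The thiolase POT1 had 90.7, 100.5 and 65.2 TPM in WT starvation, against 0.675, 1.002 and 0.733 TPM in WT log, and the peroxisomal catalase CTA1 rose by 5.34 ± 0.50. Peroxisome biogenesis had 14 higher and 0 lower of 26 tested (4 and 0 after centring), with the import co-receptor PEX18 at 4.66 and the receptor PEX5 at 1.58.

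Sugar metabolism changed within lists as well as between them. Hexose transporters had 6 higher and 4 lower of 14 tested (5 and 4 after centring): HXT1 to HXT4 fell, HXT4 least at 1.56 ± 0.36, while HXT5, HXT6, HXT8, HXT9, HXT10 and the glucose sensor SNF3 rose. HXT6 had 2523, 2405 and 2938 TPM in WT starvation and 459, 411 and 488 TPM in WT log. HXT6 and HXT7 are near-identical, and how reads were split between them is uncertain. Glycolysis had 1 higher and 13 lower of 19 tested (1 and 14 after centring), fermentation 5 higher and 4 lower of 14 tested (5 and 5 after centring), and gluconeogenesis with the glyoxylate cycle 20 higher and 0 lower of 20 tested (20 and 0 after centring), a median of 6.86. The exception in glycolysis was PFK26, which makes fructose-2,6-bisphosphate, the activator of phosphofructokinase. Trehalose genes had 5 higher and 0 lower of 8 tested (2 and 0 after centring), with the acid trehalase ATH1 at 2.75 and the neutral trehalases NTH1 and NTH2 at 1.31 and 1.57. Glycogen genes had 7 higher and 1 lower of 13 tested (7 and 2 after centring), with the sporulation glucoamylase SGA1 at 3.33, the phosphatase subunits GIP2 and GAC1 at 2.72 and 2.64, and the synthase GSY1 at -2.06. The pentose phosphate pathway had 4 higher and 3 lower of 11 tested (4 and 4 after centring).

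Many enzymes of yeast exist as a pair of paralogs, and 36 such pairs were laid side by side. The pairs were chosen after their values had been seen, so their counts are a description. In 9 pairs the gene listed first fell and its paralog rose, in 2 the reverse, and in 4 both had the same call. The other 21 had a call for 1 gene of the pair. In 13 pairs the gene listed second was the less abundant in every WT log library and the more abundant in every WT starvation library. The reverse swap, also in every library, was seen for PFK26 and PFK27, CYC1 and CYC7, and COX5A and COX5B.

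Enzymes of the pentose phosphate pathway made up 4 of these 13 pairs. The 6-phosphogluconate dehydrogenase GND1 had 119, 97.9 and 118 TPM in WT starvation and 815, 833 and 906 TPM in WT log, whereas GND2 had 234, 220.1 and 166 TPM in WT starvation and 3.904, 3.45 and 4.28 TPM in WT log. The transketolase TKL1 fell by 1.79 ± 0.21 and TKL2 rose by 6.48 ± 0.38. The 6-phosphogluconolactonase SOL3 fell by 2.201 ± 0.14 and SOL4 rose by 2.696 ± 0.29. The transaldolase TAL1 averaged 349.8 ± 4.88 TPM in WT starvation and 611 ± 34.2 TPM in WT log, and its paralog NQM1 rose to 1294, 1426 and 1037 TPM in WT starvation, against 16.4, 15.1 and 14.9 TPM in WT log.

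Pairs outside sugar metabolism gave mixed results. In SAM1 and SAM2 and in CLB1 and CLB2 both genes fell, and in the pairs of RAS1, HTA2 and HTB2 the first gene fell and the second had no call. UBC4 averaged 396 ± 21.2 TPM in WT starvation and 481 ± 10.99 TPM in WT log without a call, while UBC5 had 426, 454 and 438 TPM in WT starvation, against 51.7, 51.3 and 47.3 TPM in WT log. The glucan synthase FKS1 averaged 79.3 ± 9.31 TPM in WT starvation and 145 ± 7.19 TPM in WT log, and GSC2 rose by 3.53 ± 0.08, becoming the more abundant in every WT starvation library. HEF3, the second gene for elongation factor 3, had 129, 127 and 108 TPM in WT starvation and 4.76, 5.02 and 5.22 TPM in WT log, while YEF3 fell by 1.42 ± 0.16 and stayed the more abundant. The Ran GTPase GSP1 fell by 1.56 ± 0.22 and GSP2 rose by 2.48 ± 0.17, and the proton pump PMA1 fell by 2.15 ± 0.19 while PMA2 rose by 2.79 ± 0.26. The glutamate dehydrogenase GDH3 had 1303, 1119 and 1143 TPM in WT starvation, against 9.27, 8.203 and 7.55 TPM in WT log, reaching the level of GDH1 at 983, 789.8 and 1192 TPM in WT starvation.

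The pairs that ran the other way involved oxygen and glycolysis. PET9, the main ADP/ATP carrier, rose by 1.96 ± 0.13 and AAC3, its paralog of anaerobic growth, fell by 2.68 ± 0.12. PFK26 had 113, 122 and 113 TPM in WT starvation and 21.8, 18.4 and 21.5 TPM in WT log, and PFK27 had 19.5, 19.6 and 25.4 TPM in WT starvation and 77.5, 69.8 and 75.2 TPM in WT log. CYC1 and CYC7, the cytochromes c, both rose, at 2.87 and 1.18. COX5A rose by 2.75 ± 0.13, and COX5B, its hypoxic form, averaged 137 ± 14.2 TPM in WT starvation and 186 ± 5.54 TPM in WT log with no call.

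**Figure D4:**
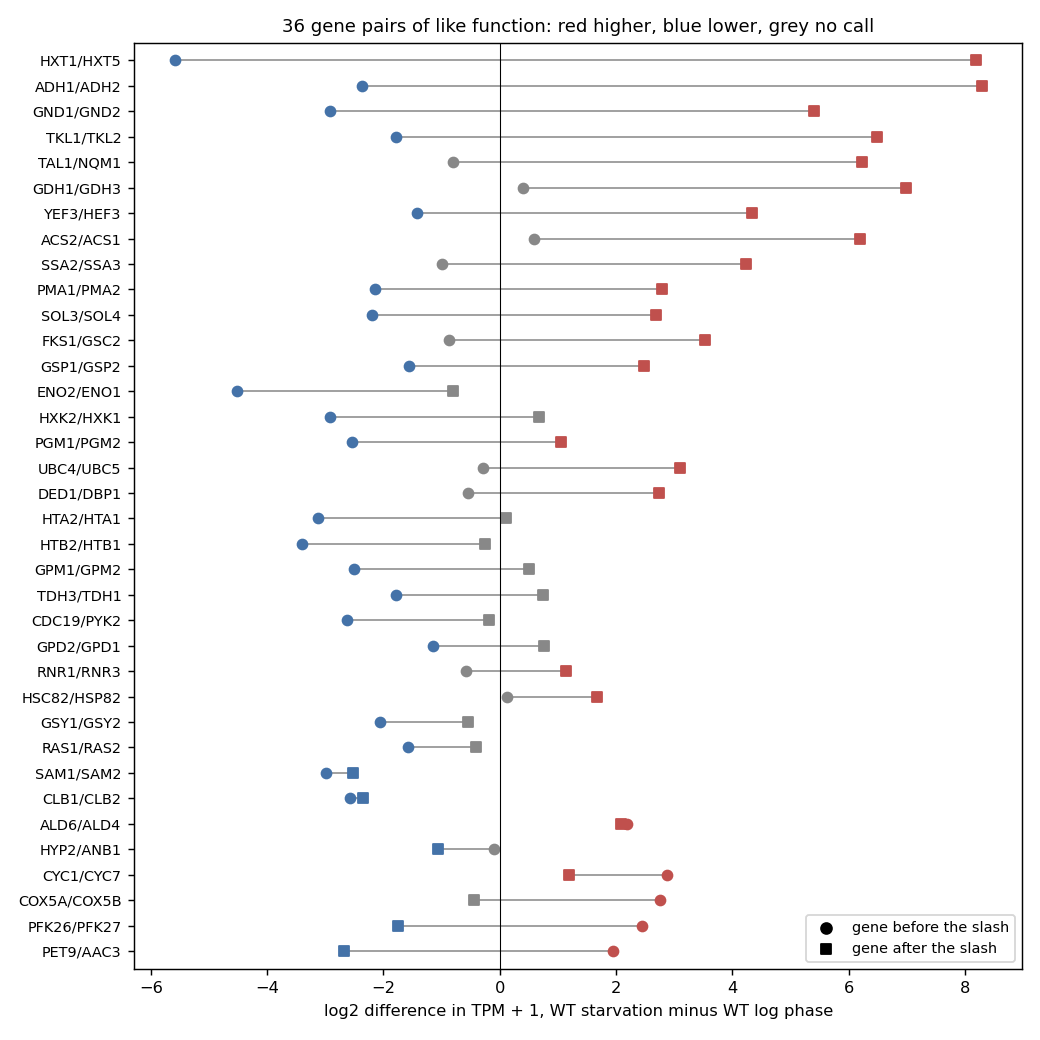
Log2 difference, WT starvation minus WT log (x axis), for 36 pairs of paralogous genes (rows). The circle is the gene before the slash and the square the gene after it, joined by a line; in 9 pairs the circle fell and the square rose.

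Most ribosomal protein genes were lower. Large-subunit ribosomal proteins had 0 higher and 68 lower of 81 tested (0 and 79 after centring) and small-subunit ones 0 higher and 46 lower of 57 tested (0 and 54 after centring), with medians of -1.33 and -1.28. Under quantile normalization, 46 of the large-subunit and 31 of the small-subunit genes were lower. ASC1, a scaffold protein of the small subunit, had 358, 327 and 391 TPM in WT starvation, against 2756, 2855 and 2986 TPM in WT log (log2 difference -2.998 ± 0.13, adjusted p = 4.4e-14), and RPL9A fell by 2.97 ± 0.16. Most ribosomal proteins are encoded by near-identical pairs, whose reads may be split unevenly. Elongation and termination had 1 higher and 11 lower of 22 tested (1 and 17 after centring), with TEF4 at -2.56, the ribosome-associated Hsp70 SSB1 at -2.21 and its partner ZUO1 at -1.86. HEF3 was the exception. Initiation factors had 1 higher and 6 lower of 31 tested (1 and 17 after centring): TIF1, the helicase eIF4A, fell by 1.58 ± 0.09, and DBP1, a paralog of the helicase DED1, rose by 2.75 ± 0.22. The tRNA synthetases had 0 higher and 13 lower of 21 tested (0 and 18 after centring). WRS1, which charges tryptophan tRNA, had 64.5, 59.5 and 58.2 TPM in WT starvation, against 262, 271 and 270.3 TPM in WT log, and MES1 and FRS1, for methionine and phenylalanine, fell by 1.83 ± 0.09 and 1.79 ± 0.11.

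Genes that build the ribosome had lower calls alone, in numbers that depended on scaling. Ribosome biogenesis had 0 higher and 30 lower of 117 tested (0 and 71 after centring), with a median of -0.67 and log2 differences from -2.34 to 0.67. Under quantile normalization 71 were lower and 0 higher. NSR1, nucleolin, had 98.4, 67.3 and 108 TPM in WT starvation, against 449, 496 and 432 TPM in WT log (log2 difference -2.34 ± 0.29, adjusted p = 3.3e-07). DBP2, an RNA helicase, fell by 2.22 ± 0.22 and NOP1, fibrillarin, by 2.18 ± 0.16. RNA polymerase I and its factors split: 4 higher and 5 lower of 16 tested (1 and 8 after centring). The subunit RPA49 had 23.9, 22.5 and 22.1 TPM in WT starvation and 109, 117 and 122 TPM in WT log, and RPA43 and RPA12 fell by 2.09 ± 0.18 and 1.55 ± 0.13. RRN3, the initiation factor whose activity follows TORC1, had 62.6, 62.8 and 57.9 TPM in WT starvation and 9.97, 14.7 and 11.8 TPM in WT log (log2 difference 2.25 ± 0.19, adjusted p = 1.7e-09), and RRN7 rose by 1.203 ± 0.23. RNA polymerase II had 0 higher and 2 lower of 12 tested (0 and 4 after centring). The 2 were RPB8, a subunit that all 3 enzymes share, at -1.36, and RPB5 at -1.097. RNA polymerase III had 0 higher and 1 lower of 20 tested (0 and 3 after centring). That gene was RPC31 at -1.03, a call lost without WT starvation replicate 1 or WT log replicate 2. In tRNA modification, 2 higher and 5 lower of 36 tested (1 and 12 after centring), the methyltransferase TRM11 fell by 1.92 ± 0.12 and TRM13 rose by 2.45 ± 0.12.

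The PAC element, GATGAG, stood in 105 of 117 promoters of the ribosome biogenesis list, and the RRPE element, AAAATTT, in 111 of 117. Over all 6007 promoters PAC stood in 19.1% and RRPE in 24.4%, in promoters of genes called higher in 16.0% and 18.1%, and of genes called lower in 22.8% and 37.2%. In the ribosomal protein lists PAC stood in 8 of 81 and 8 of 57 promoters. The element is shown in capitals, as CTCATC on the other strand, in the 3 holders with the largest falls. NSR1's stretch is chrVII:807826-807855 on the minus strand, DBP2's chrXIV:413472-413501 on the plus strand and NOP1's chrIV:427148-427177 on the plus strand.
NSR1: ttgcaagggcagCTCATCgcaagaacgaaa
DBP2: tttacgccgatgCTCATCgcagaaaatttt
NOP1: caaattggaaagCTCATCtctcttgaatgt

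Amino acid pathways moved in different directions. Branched-chain synthesis had 7 higher and 1 lower of 12 tested (5 and 2 after centring): LEU1, isopropylmalate isomerase, had 1481, 1414 and 1755 TPM in WT starvation, against 114, 142 and 170.2 TPM in WT log (log2 difference 3.45 ± 0.14, adjusted p = 1.8e-14), and LEU4 and ILV5 rose by 2.601 ± 0.17 and 2.17 ± 0.15. LEU9, the paralog of LEU4, fell by 1.18 ± 0.14. The marker LEU2 averaged 4482 ± 462 TPM in WT starvation and 5191 ± 698 TPM in WT log with no call. Sulfur assimilation and methionine had 6 higher and 13 lower of 30 tested (2 and 13 after centring). SAM1, an S-adenosylmethionine synthetase, had 215, 182 and 229.6 TPM in WT starvation, against 1645, 1714 and 1621 TPM in WT log, and SAM2, MET3 and MET17 fell by 2.52 ± 0.12, 2.23 ± 0.16 and 2.12 ± 0.12. The members that rose included MET30, a ubiquitin ligase subunit that regulates the pathway, at 1.84 ± 0.08, and the S-adenosylmethionine permease SAM3 at 1.74. The activators MET4 and MET28 stood at 1.48 and 1.44, called as deposited but not after centring.

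Aromatic amino acid synthesis had 0 higher and 3 lower of 13 tested (0 and 4 after centring), with chorismate mutase ARO7 at -1.81. Arginine, lysine and histidine synthesis had 6 higher and 2 lower of 24 tested (1 and 6 after centring), so that most calls were higher as deposited and lower after centring. ARG3, ornithine carbamoyltransferase, rose by 3.36 ± 0.23, and HIS1 fell by 2.27 ± 0.16. GCN4, the activator of these pathways, averaged 1540 ± 83.6 TPM in WT starvation and 833 ± 44.1 TPM in WT log, a difference of 0.89. Permeases had 10 higher and 2 lower of 21 tested (7 and 4 after centring): the proline and GABA permeases PUT4 and UGA4 rose by 3.23 ± 0.60 and 2.59 ± 0.24, the branched-chain permease BAP2 by 2.996 ± 0.15, and the glutamine permease GNP1 fell by 2.05 ± 0.19. Nitrogen catabolite genes, which are repressed on good nitrogen sources, had 8 higher and 7 lower of 34 tested (5 and 7 after centring), the majority changing with centring. DAL1 and DAL7, of allantoin use, fell by 2.095 ± 0.16 and 2.07 ± 0.11. In the Ehrlich pathway, which turns amino acids into fusel alcohols, 11 higher and 3 lower of 19 tested (7 and 4 after centring), ARO10 and ADH7 had 88.8, 78.8 and 99.96 TPM and 224, 188 and 259.7 TPM in WT starvation, against 0.674, 0.458 and 0.353 TPM and 1.93, 3.07 and 2.39 TPM in WT log.

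Most calls in nucleotide synthesis were lower. Purine genes had 0 higher and 13 lower of 27 tested (0 and 16 after centring) and pyrimidine genes 2 higher and 9 lower of 15 tested (2 and 10 after centring). IMD2 and IMD4, IMP dehydrogenases of guanine nucleotide synthesis, had 16.8, 15.5 and 20.7 TPM and 21.8, 16.96 and 30.7 TPM in WT starvation, against 243, 269 and 271 TPM and 278, 293 and 299 TPM in WT log (log2 difference -3.82 ± 0.14, adjusted p = 2.9e-15 for IMD2). URA1, dihydroorotate dehydrogenase, fell by 3.48 ± 0.11 and URA7, CTP synthetase, by 2.31 ± 0.17. URA10, a minor orotate phosphoribosyltransferase, had 332, 325 and 323 TPM in WT starvation and 30.3, 28.3 and 28.2 TPM in WT log, a rise of 3.45 ± 0.08, and the uracil permease FUR4 rose by 1.49 ± 0.13.

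Vitamin and metal genes changed in both directions. Thiamine and pyridoxine genes had 15 higher and 2 lower of 23 tested (10 and 2 after centring): THI4, of thiazole synthesis, rose by 3.604 ± 0.16, the thiamine transporter THI7 by 2.46 ± 0.13 and SNZ3 by 2.66 ± 0.15. PHO3, an acid phosphatase that frees thiamine from its phosphate, had 5.61, 3.87 and 5.25 TPM in WT starvation, against 99.6, 110.1 and 107 TPM in WT log, and THI80 fell by 1.18 ± 0.16. THI5, THI11, THI12 and THI13 are near-identical copies. Zinc genes had 6 higher and 1 lower of 16 tested (5 and 4 after centring). The high-affinity importer ZRT1 had 1044, 863 and 1082 TPM in WT starvation, against 40.04, 70.03 and 77.1 TPM in WT log (log2 difference 4.02 ± 0.22, adjusted p = 2.2e-12), and ZAP1, the activator that senses low zinc, rose by 2.27 ± 0.17. Copper genes had 5 higher and 0 lower of 14 tested (3 and 0 after centring): CUP1-2 rose by 2.55 ± 0.31 and the metallothionein CRS5 by 4.21 ± 0.15. CUP1-1, an identical copy, was listed at 554, 1940 and 3023 TPM in WT starvation and 0, 391 and 552 TPM in WT log, without a call, so the split of reads between the copies is uncertain.

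Iron genes had 14 higher and 3 lower of 35 tested (5 and 5 after centring), an even split after centring. The multicopper oxidase FET3 averaged 52.7 ± 9.27 TPM in WT starvation and 158 ± 70.6 TPM in WT log and the enterobactin transporter ENB1 23.4 ± 0.633 TPM in WT starvation and 122 ± 37.2 TPM in WT log, with WT log replicate 1 the highest for both. The iron-sulfur scaffold ISU1 rose by 2.17 ± 0.08, and FET4, a low-affinity transporter, fell by 1.499 ± 0.13. Phosphate genes had 4 higher and 8 lower of 31 tested (4 and 11 after centring). The acid phosphatase PHO5 had 26.2, 27.1 and 29.9 TPM in WT starvation, against 149, 199 and 216 TPM in WT log, and the sodium-phosphate carrier PHO89 had 607, 582 and 765 TPM in WT starvation, against 98.1, 58.6 and 61.7 TPM in WT log, so members induced by low phosphate in textbook accounts lay on both sides.

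Lipid genes were called in both directions. Ergosterol synthesis had 0 higher and 6 lower of 27 tested (0 and 11 after centring): ERG6 had 71.95, 63.3 and 71.9 TPM in WT starvation, against 366, 380.3 and 361 TPM in WT log, and ERG2 and ERG26 fell by 1.95 ± 0.08 and 1.45 ± 0.06. Fatty acid synthesis had 3 higher and 3 lower of 21 tested (2 and 6 after centring), with the elongases ELO3 and ELO2 at -2.49 and -2.29 and the mitochondrial ETR1 at 1.88. Phospholipid and inositol genes had 6 higher and 4 lower of 32 tested (2 and 5 after centring) and sphingolipid genes 4 higher and 0 lower of 26 tested (1 and 3 after centring), both with a majority that changed on centring. INO1, inositol-3-phosphate synthase, had 1840, 1679 and 1583 TPM in WT starvation, against 79.8, 149.9 and 155 TPM in WT log (log2 difference 3.78 ± 0.22, adjusted p = 5.0e-12). PIS1, phosphatidylinositol synthase, fell by 1.71 ± 0.05. Storage lipid genes had 3 higher and 0 lower of 15 tested (2 and 0 after centring): the lipid droplet protein PLN1 rose by 2.35 ± 0.08, the acyltransferase DGA1 by 1.49 ± 0.08 and the lipase TGL3 by 1.19 ± 0.06.

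Genes of DNA replication and bud growth gave few calls, and those of daughter-cell separation were mostly lower. DNA replication had 3 higher and 0 lower of 50 tested (1 and 5 after centring), cyclins and cell cycle control 7 higher and 5 lower of 40 tested (1 and 9 after centring), the mitotic spindle and kinetochore 5 higher and 3 lower of 48 tested (1 and 8 after centring), and septins and bud growth 2 higher and 2 lower of 28 tested (1 and 5 after centring). Of all tested genes 35.2% had a call. The first 3 of these lists changed majority on centring, and under quantile normalization cyclins and cell cycle control had 1 higher and 14 lower. The mitotic cyclins CLB1 and CLB2 stood at -2.57 and -2.34, PCL1, a cyclin of the kinase Pho85, rose by 2.46 ± 0.24, and the tubulins TUB1, TUB2 and TUB3 fell by 1.48 ± 0.09, 1.68 ± 0.05 and 1.81 ± 0.08. ASE1, a spindle midzone protein, rose by 1.92 ± 0.09. Histone genes had 0 higher and 3 lower of 11 tested (0 and 7 after centring): HTA2, HTB2 and HHF2 fell by 3.12 ± 0.10, 3.39 ± 0.09 and 2.09 ± 0.09, while HTA1 averaged 1849 ± 29.2 TPM in WT starvation and 1724 ± 64.7 TPM in WT log with no call and HTB1 1424 ± 37.5 TPM in WT starvation and 1706 ± 75.4 TPM in WT log.

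Daughter-cell genes, most of which encode wall enzymes and other proteins that part the daughter from its mother, had 1 higher and 13 lower of 17 tested (0 and 14 after centring), a median of -2.45. EGT2 had 4.41, 5.05 and 4.73 TPM in WT starvation, against 70.7, 70.5 and 83.1 TPM in WT log (log2 difference -3.72 ± 0.10, adjusted p = 3.0e-17). SRL1 fell by 3.76 ± 0.15. PST1, a cell wall protein, was the exception at 1.19. DSE2, which acts in cell separation, fell by 3.58 ± 0.13.

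The cell wall exchanged members. Glucan and chitin genes had 4 higher and 6 lower of 30 tested (1 and 8 after centring), with the glucanosyltransferase GAS1 at 108, 102 and 126 TPM in WT starvation and 645, 705 and 765 TPM in WT log, SCW4 at -2.99 and GSC2 at 3.53. Mannoproteins had 10 higher and 8 lower of 31 tested (4 and 9 after centring), more of them lower after centring. PIR3 had 2570, 2409 and 2216 TPM in WT starvation, against 48.4, 45.1 and 51.3 TPM in WT log, while its relatives PIR1 and CIS3 fell by 1.65 ± 0.13 and 2.69 ± 0.07. SED1, a major wall protein of stationary cells, had 3337, 3072 and 2904 TPM in WT starvation, against 624, 658 and 712 TPM in WT log, and TIP1, CWP2 and CCW12 fell by 3.46 ± 0.12, 2.23 ± 0.10 and 1.66 ± 0.09. Seripauperins, a family of related genes near chromosome ends, had 11 higher and 0 lower of 21 tested (9 and 0 after centring), PAU2 the highest at 3.81. Their sequences are close enough that reads may be shared among them.

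Called mating genes were mostly lower in this strain of mating type a, and the balance among called meiotic genes depended on scaling. Mating type a and pheromone response had 3 higher and 8 lower of 30 tested (1 and 10 after centring): MFA1 had 197, 235 and 218 TPM in WT starvation, against 1935, 2192 and 2061 TPM in WT log (log2 difference -3.25 ± 0.09, adjusted p = 7.9e-17), and the protease BAR1 and the receptor STE2 fell by 2.85 ± 0.16 and 2.69 ± 0.14. The alpha-type receptor gene STE3 averaged 8.24 ± 0.839 TPM in WT starvation and 1.59 ± 0.221 TPM in WT log, a rise of 1.83 ± 0.13 at a low level. Meiosis and sporulation had 24 higher and 1 lower of 51 tested (15 and 5 after centring), and 8 higher and 5 lower under quantile normalization. IME1, the master activator of meiosis, had 285, 298 and 336 TPM in WT starvation, against 10.9, 9.43 and 11.7 TPM in WT log (log2 difference 4.72 ± 0.32, adjusted p = 5.1e-11). SPS100, a spore wall gene, rose by 5.93 ± 0.12 and RIM4, a meiotic RNA-binding protein, by 3.71 ± 0.26. NDT80, the activator of the middle genes, averaged 9.67 ± 0.576 TPM in WT starvation and 3.599 ± 0.189 TPM in WT log, and the middle gene SPS4 fell, at 1.03, 0.766 and 0.866 TPM in WT starvation and 10.1, 14.6 and 11.8 TPM in WT log. The URS1 element GCCGCC stood in 15 of 51 promoters of the list and 5.21% of all. DNA repair had 20 higher and 1 lower of 50 tested (5 and 1 after centring), with RAD4, MAG1 and RAD54 at 1.95, 1.92 and 1.91.

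Traffic and RNA processing genes were called in both directions. Vesicle coats had 2 higher and 3 lower of 48 tested (0 and 7 after centring), glycosylation and GPI anchors 2 higher and 10 lower of 57 tested (0 and 22 after centring), and nuclear pore and transport 1 higher and 3 lower of 46 tested (1 and 5 after centring). PSA1, which makes GDP-mannose, had 194, 192 and 228 TPM in WT starvation, against 987, 979.8 and 1085 TPM in WT log, and ALG5 fell by 2.23 ± 0.08. ARF1, a GTPase of coat assembly, fell by 1.23 ± 0.09 and SNC1, a vesicle SNARE, rose by 1.23 ± 0.06. Spliceosome genes had 16 higher and 1 lower of 62 tested (2 and 1 after centring): CWC2 rose by 2.22 ± 0.16, DIB1 by 1.55 ± 0.10, and the helicase PRP43, which also acts in ribosome assembly, fell by 1.68 ± 0.11. HSH49, MUD1 and NAM8, altered in the mutants of the series, stood at 0.77, 0.84 and 0.63, without a call. Messenger decay had 2 higher and 1 lower of 48 tested (1 and 4 after centring), with a majority that changed on centring, and EDC2, a decapping activator, rose by 1.76 ± 0.08. Chromatin remodelling and silencing had 12 higher and 0 lower of 62 tested (3 and 1 after centring), with the silencing protein SIR1 at 2.14 and the histone demethylases JHD2 and RPH1 at 1.92 and 1.91.

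Regulators of the shift changed unevenly. Glucose repression and derepression genes had 14 higher and 4 lower of 32 tested (6 and 4 after centring). SIP4, an activator of gluconeogenic genes, had 94.3, 104 and 94.3 TPM in WT starvation, against 1.08, 1.02 and 1.26 TPM in WT log (log2 difference 5.54 ± 0.44, adjusted p = 4.1e-10), and ADR1 and CAT8, activators of the same class, rose by 3.196 ± 0.21 and 3.05 ± 0.20. The repressors MIG2 and MIG3 fell by 3.41 ± 0.26 and 1.36 ± 0.15, while MIG1 averaged 111 ± 5.11 TPM in WT starvation and 83.9 ± 8.38 TPM in WT log. SNF1, the kinase itself, stood at 0.55, its subunit SNF4 at -0.17, and its alternative subunit SIP2 rose by 2.67 ± 0.21, at 280.5, 280.1 and 227 TPM in WT starvation and 39.2, 39.6 and 41.8 TPM in WT log. HAP4, the regulated subunit of the CCAAT-binding activator of respiration, averaged 223 ± 7.65 TPM in WT starvation and 132 ± 10.5 TPM in WT log, 0.76 and no call. The glucose-sensing regulator STD1 fell by 1.62 ± 0.11, and NRG1, a repressor, rose by 2.33 ± 0.16.

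Protein kinase A and TOR genes had 13 higher and 1 lower of 46 tested (2 and 1 after centring). CRF1, a co-repressor of ribosomal protein genes in some strains, had 58.8, 58.3 and 54.1 TPM in WT starvation, against 2.41, 2.12 and 2.27 TPM in WT log (log2 difference 4.15 ± 0.28, adjusted p = 3.1e-11), and PDE1, the low-affinity cAMP phosphodiesterase, rose by 2.16 ± 0.09. RAS1 fell by 1.58 ± 0.26, whereas RAS2 averaged 373 ± 19.9 TPM in WT starvation and 493 ± 21.2 TPM in WT log. The catalytic subunits TPK2 and TPK3 stood at 1.09 and 0.18, and TOR1 and TOR2 at 0.47 and 0.99. Stress transcription factors had 7 higher and 0 lower of 26 tested (4 and 2 after centring). XBP1, a repressor of cyclin genes in quiescent cells, had 182, 168 and 143 TPM in WT starvation, against 8.602, 9.35 and 11.2 TPM in WT log (log2 difference 3.95 ± 0.25, adjusted p = 1.4e-11), and YAP6 rose by 2.27 ± 0.17. MSN2 and MSN4 stood at 0.599 and 0.95, with no call. The kinase RIM15 and the factor GIS1 rose by 1.12 ± 0.15 and 1.09 ± 0.17.

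Plasma membrane genes were called in both directions. Proton pump and drug transport genes had 9 higher and 4 lower of 29 tested (6 and 6 after centring). PMA1, the main proton pump, had 285, 265 and 420.1 TPM in WT starvation, against 1360, 1365 and 1498 TPM in WT log, and its small partner PMP1 fell by 1.601 ± 0.09. MRH1 fell by 2.94 ± 0.12 and its relative YRO2 rose to 882, 873 and 891 TPM in WT starvation, against 88.4, 86.2 and 141 TPM in WT log. The transporter PDR10 rose by 2.63 ± 0.17.

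Some features of the genes themselves went with the direction of change. Among 5750 nuclear coding genes matched to R64, 206 lay within 20 kb of a chromosome end, and 47.6% of these were higher and 4.85% lower, against 25.2% and 9.61% of the genes elsewhere. After centring, 53 and 16 of the 206 were higher and lower. Genes called higher had a median level of 24.01 TPM in WT log and genes called lower 217.6 TPM. Of 1150 genes with the lowest level in WT log 46.9% were higher and 2.26% lower, and of 1150 with the highest level 13.2% and 29.7%. The level in WT log enters the difference itself, so this is a description. Of 89 intron-bearing ribosomal protein genes 74 were lower, and of 173 other intron-bearing genes 42 were higher and 15 lower, near the 26.5% and 8.27% of genes without an intron. The median coding length was 1144 bases for genes called higher, 963 for genes called lower and 1202 for all tested. Genes that the mitochondrial genome encodes had 6 of 9 higher and 0 lower, 1 and 0 after centring, and tRNA rows had 34 of 129 higher and 11 lower, 17 and 18 after centring. Poly(A) selection leaves little of these RNAs, so their values are uncertain.

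A part of the shift differed between the wild type and the mutants. NAM8 and MUD1 encode U1 snRNP proteins and HSH49 a U2 snRNP protein. NAM8 averaged 0.119 TPM in nam8D starvation and 0.188 TPM in nam8D log, and MUD1 3.58 TPM in mud1D starvation and 2.91 TPM in mud1D log. The difference tested was the WT shift (starvation minus log) minus the mean shift of the 3 mutants. It was higher in 550 genes (8.53%) and lower in 236 (3.66%) at an adjusted p under 0.05 and a size of at least 1. With spike-in scaling these counts were 2129 and 69, and the median difference over all tested genes was 0.76 in place of 0.09, so the balance of directions depends on that choice. Against each mutant alone the counts were 508 and 216 for hsh49::Q24P, 565 and 272 for nam8D, and 617 and 257 for mud1D. Of the genes called higher in WT starvation, 240 rose further than in the mutants and 62 less far. Of those called lower, 44 fell further and 83 less far. Among genes without a call in the wild type, the difference was higher in 227 and lower in 130. The WT shift enters both the call and the difference, so these counts are a description.

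DPA10 averaged 7545 ± 839.9 TPM in WT starvation and 0.387 ± 0.377 TPM in WT log, while the starved mutants averaged 47.6 to 143 TPM. GRE1 averaged 773 ± 149 TPM in WT starvation and 2.62 ± 0.15 TPM in WT log, and 7.91 to 18.4 TPM in the starved mutants. With ADH2, GND2, TKL2 and YDL218W these were, among the genes named here, the 6 whose shift was highest relative to the mutants. PDC5, a pyruvate decarboxylase, averaged 102 ± 10.8 TPM in WT starvation and 10.7 ± 1.28 TPM in WT log, but 1851 to 3136 TPM in the starved mutants. HXT3, a low-affinity glucose transporter, averaged 233 ± 18.6 TPM in WT starvation and 1632 ± 110.3 TPM in WT log, against 2412 to 4451 TPM in the starved mutants. The mean of HXT3 in starvation was above that in log phase in each mutant, with a wide spread in hsh49::Q24P and mud1D starvation. It was 4451 ± 331 TPM in nam8D starvation and 2311 ± 113 TPM in nam8D log. In hsh49::Q24P it was 2593 ± 977 TPM in starvation and 1883 ± 300.5 TPM in log phase, and in mud1D 2412 ± 907 and 2221 ± 260 TPM.

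By list, genes were counted whose WT shift was higher or lower than the mutants' mean shift. Over all tested genes these were 8.53% and 3.66%. Gluconeogenesis had 12 higher and 0 lower of 20, nitrogen catabolite genes 13 higher and 1 lower of 34, and ergosterol synthesis 12 higher and 1 lower of 27. Purine synthesis had 11 higher and 0 lower of 27 and daughter-cell separation 10 higher and 0 lower of 17. A higher difference can be a larger rise or a smaller fall. The list's median shift in WT and in the mutants' mean was 6.86 and 5.41 for gluconeogenesis and 0.44 and 0.18 for nitrogen catabolite genes. It was -0.28 and -1.34 for ergosterol synthesis, -0.84 and -1.32 for purine synthesis, and -2.45 and -3.57 for daughter-cell separation. Some lists ran the other way. Sulfur assimilation had 0 higher and 13 lower of 30, branched-chain synthesis 0 and 6 of 12, and glucose repression and derepression 2 and 6 of 32. ATP synthase had 0 higher and 0 lower of 17, at the same call rule in limma. With spike-in scaling sulfur assimilation had 3 higher and 6 lower, branched-chain synthesis 2 and 2, and glucose repression and derepression 7 and 2. By that scaling ATP synthase had 2 and 0, gluconeogenesis 15 and 0, and nitrogen catabolite genes 19 and 0. Ergosterol synthesis had 18 and 0, purine synthesis 17 and 0, and daughter-cell separation 16 and 0. The marker LEU2 averaged 4482 TPM in WT starvation and 5191 TPM in WT log and under 216 TPM in every mutant group, so that the strains differ in more than the altered genes, and strain cannot be told apart from genotype here.

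**Figure D5:**
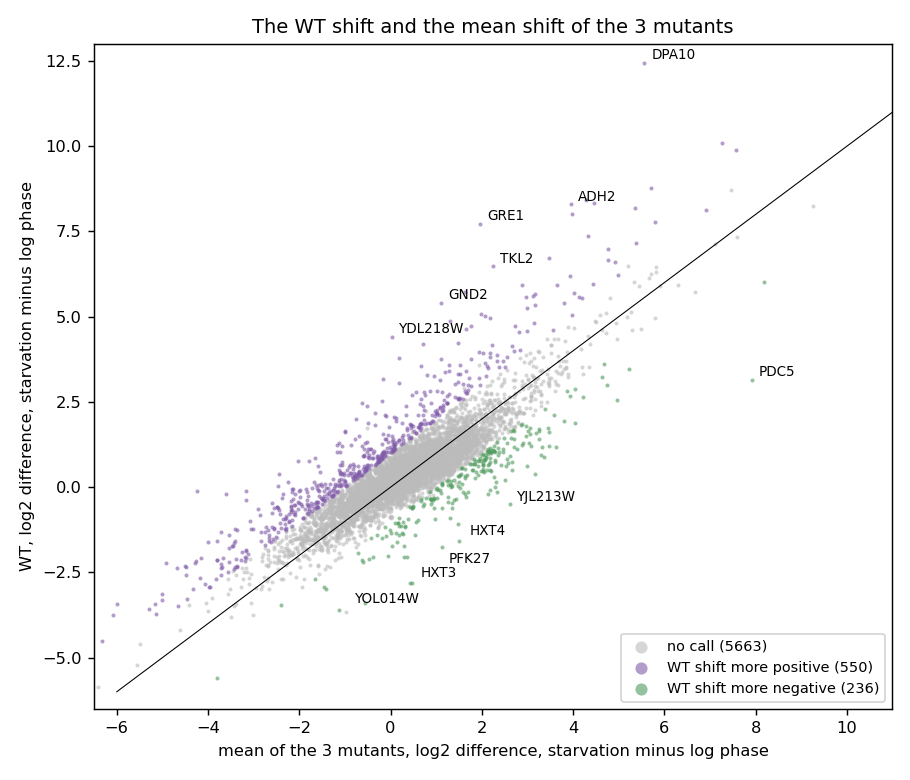
Log2 difference, starvation minus log, in the wild type (y axis) against its mean in the 3 mutants (x axis), a point a gene. Purple points are the 550 genes with a higher difference in the wild type, green points the 236 with a lower one and grey the other 5663; genes off the diagonal moved by different amounts.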

How the data were processed

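Poly(A)-selected RNA of 24 libraries was sequenced, 6 of them from the wild type. The authors deposited 1 table of TPM, read here as given. The submitters' processing notes list the aligner STAR 2.7.9a, Trimmomatic 0.39 and FastQC 0.11.9; the counting annotation, build and strand setting are not given in the sources used here. TPM keeps no depth, so the depth per library is unknown and no interval is given.

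Spike-in, LTR, origin and rDNA spacer rows were left out. Genes with at least 1 TPM in 3 of 24 libraries were tested on a log2 scale, pseudocount 1, in R 4.3.3 (limma 3.58.1), with a mean for each of 8 groups over all 24 libraries, an intensity trend and Benjamini-Hochberg adjustment over 6449 genes. All adjusted p-values in the text are from this fit. The labels call the 3 libraries of a group biological replicates and name no culture or day, so p-values measure the spread between these libraries. Every title carries the same batch word, so no batch could be compared. The fit was tested on simulated data. Sequences, introns and positions were read from RefSeq R64 by gene identifier, with 6050 rows matched. Python 3.11.15 drew the figures.

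The genes named were the 12 largest changes in each direction among coding genes called with a mean of at least 10 TPM, up to 3 called members of each list in each direction, members against a list's majority, regulators of the signalling lists, the 10 most abundant genes of each state, the 6 largest differences from the mutants in each direction, and strain markers. The members and lists were chosen with earlier results of these data known, and the paralog pairs and other genes named outside this rule were chosen after their values were seen. Some results on single genes and promoter motifs are not reported here.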

Additional observations from a re-analysis of the deposited data

Results flagged for a closer look

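The WT shift was compared with the mean shift of the 3 mutants (limma, adjusted p under 0.05 for each gene below). The 12 genes below had the 6 largest differences in each direction among the genes named here. They were not the 12 largest by size alone. PCK1 (4.12) and SHH3 (4.04), left out on the higher side, differed by more than HXT4 and PFK27 on the lower side. On the log2 scale the WT shift was higher by 6.88 for DPA10, 5.77 for GRE1, 4.38 for YDL218W, 4.35 for ADH2, 4.30 for GND2 and 4.23 for TKL2. The difference was -4.77 for PDC5, -3.27 for HXT3, -3.23 for YOL014W, -3.12 for YJL213W, -3.07 for HXT4 and -2.87 for PFK27. In the wild type alone YJL213W had no call.

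Rows outside the gene comparisons also held signal. LTR rows held 0.269% of TPM in WT starvation and 0.134% in WT log, and rows for replication origins 0.242% in WT starvation and 0.0857% in WT log. Spike-in rows held 1.43% of TPM in WT starvation and 1.16% in WT log, and the labels do not mention a spike-in. What these rows reflect was not tested.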

How the results depend on the processing

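The balance of higher and lower genes depended on scaling. Against 1691 higher and 581 lower genes, centring gave 845 and 1038, quantile normalization 839 and 1054, and spike-in scaling 1118 and 821. The median of all tested genes was 0.47 as deposited, 0.20 with spike-in scaling, -0.01 after centring and -0.03 after quantile normalization. The 845 genes higher after centring were all among the 1691, and the 581 lower genes were all lower after centring. Leaving out 1 library gave 1665 to 1706 higher and 540 to 604 lower genes. For the difference from the mutants, 786 genes in all became 2198 with spike-in scaling and 753 to 792 with a WT library left out. The 550 higher became 2129 with spike-in scaling, 354 with a pseudocount of 5 and 523 to 549 with a library left out. The 236 lower became 69 with spike-in scaling and 225 to 246 with a library left out. The cause was not tested. No named gene reversed. Of 382 named genes with a call, 19 lost it without 1 library, all with a log2 difference under 1.12 in size as deposited. Of the same 382, 64 lost the call after centring, 61 under quantile normalization, 47 with spike-in scaling and 31 with a pseudocount of 5. Same-numbered libraries did not deviate together (r = 0.03, -0.03 and 0.02), and not every library correlated best with its own number. A fit of the WT libraries only, with the replicate number as a block, gave 1692 higher and 581 lower genes, against 1690 and 581 for the WT libraries without the block.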
